A study of Homo sapiens with 7 samples.

Results

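The genes examined were 6 genes of DNA mismatch repair, MSH3, MSH6, MLH3, PMS1, PMS2 and EXO1, out of 19970 protein-coding genes on chromosomes 1 to 22 and X. Their Rb peaks were chosen by position: a called peak belonged to a gene when it overlapped by at least 1 bp the interval from 2000 bp upstream to 500 bp downstream of any annotated transcript start (the promoter), and peaks elsewhere in the gene were also collected. Rb binding had been mapped by CUT&RUN, in which an antibody directs a nuclease to a chromatin protein and the released DNA fragments are sequenced, in ZR-75-1, an estrogen receptor-positive breast cancer cell line. The 7 libraries were 2 of parental cells given DMSO and 2 given 500 nM palbociclib, a CDK4/6 inhibitor, for 4 days, each with an Rb antibody, 1 of RB1-knockout (RB1 KO) cells with each treatment and the same antibody, and 1 of parental cells with palbociclib and a non-targeting IgG2a antibody. The RB1 KO cells were derived from sorted single cells after CRISPR editing, so each RB1 KO list describes a clonal line and has no replicate. A figure legend of the study describes its CUT&RUN replicates as independent cultures unless stated otherwise. Its reporting summary gives the palbociclib profiling of ZR-75-1 as done once, with 2 biological replicates for each treatment.

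Mismatch repair corrects bases that were mispaired or slipped during DNA replication. MutS-type proteins find the error: the MSH6 protein serves mainly base mismatches and short loops, and the MSH3 protein serves larger loops. MutL-type proteins are then recruited, of which PMS2 carries the endonuclease that nicks the faulty strand, MLH3 carries a related endonuclease used mainly in meiotic recombination, and PMS1 has a less well defined role. The exonuclease EXO1 then removes the strand. Rb is recruited to DNA by E2F transcription factors, is released from them when CDK4/6 and CDK2 phosphorylate it, and represses genes of DNA replication and the cell cycle. Other core subunits of the pathway are not analysed here.

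The lists held 996 and 816 peaks for DMSO, 8399 and 8256 for palbociclib, 65 and 51 for RB1 KO with DMSO and palbociclib, and 2648 for IgG2a. Only 4 and 5 of the RB1 KO peaks lay on chromosomes 1 to 22 and X. Fold enrichment, the height measure used throughout, is the pileup of fragments at the summit over the expected background, each with 1 added. The added 1 lowers the value most where the background is small, so the order of genes depends on it. The lists give no read totals, so the depth of the libraries is not known directly. The smallest expected background recovered from a list was 0.516 for palbociclib replicate 1 and 0.549 for palbociclib replicate 2. Both lay between the values of DMSO replicate 2 (0.465) and DMSO replicate 1 (0.571). It was not tested how far the longer palbociclib lists reflect depth.

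All 6 genes carried a promoter peak in both palbociclib lists, and none carried 1 in an RB1 KO or IgG2a list. Among all protein-coding genes, 34.9% were called in both palbociclib lists. With DMSO, EXO1 was called in both replicates and MSH3 in replicate 1 alone, whereas MSH6, MLH3, PMS1 and PMS2 were not called. The DMSO lists thus held 2 and 1 of the 6 genes (1.5 ± 0.707, SD, n = 2) and the palbociclib lists 6 and 6 (6 ± 0, SD, n = 2). The groups did not overlap, and the difference of 4.5 genes gave p = 0.333 in a two-sided exact permutation test, the smallest value that 2 against 2 libraries allow. The background for a call in both DMSO lists was 2.9%, that for at least 1 DMSO list was 6.59%, and that for a gain, meaning both palbociclib lists and no DMSO list, was 28.4%. Of the 6 genes, 4 were gained (MSH6, MLH3, PMS1 and PMS2). The IgG2a list covered 1.95% of promoters and either RB1 KO list 0.01%, so that few promoters of any kind were called there. The sources used here do not state which control was used to call the IgG2a list. The Rb lists were called against IgG, so a low overlap with the IgG2a list may be partly built in. No list held a peak inside any of the 6 genes apart from the promoter peak.

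The counts were also taken in lists of equal length, which fixes the number of calls and so removes most gains at any promoter. With each parental list cut to its best 816 peaks by q-value, the DMSO lists held 2 and 1 of the 6 genes and the palbociclib lists 1 and 2, a difference of 0 with p = 1 in the exact permutation test. EXO1 was present in all 4 shortened lists, MSH3 in DMSO replicate 1 and palbociclib replicate 2, and no gene was gained, against a gained background of 0.731%. With a common p-value cutoff for the 4 lists (-log10 p of at least 5.33), an alternative chosen after seeing the data, the difference was 4.5 genes and 4 genes were gained, against a gained background of 26.4%. By rank, EXO1 stood at 100 and 98 in the DMSO lists and at 151 and 257 in the palbociclib lists, so its position counted from the top was lower in the longer palbociclib lists although its peak was higher.

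**Figure D1:**
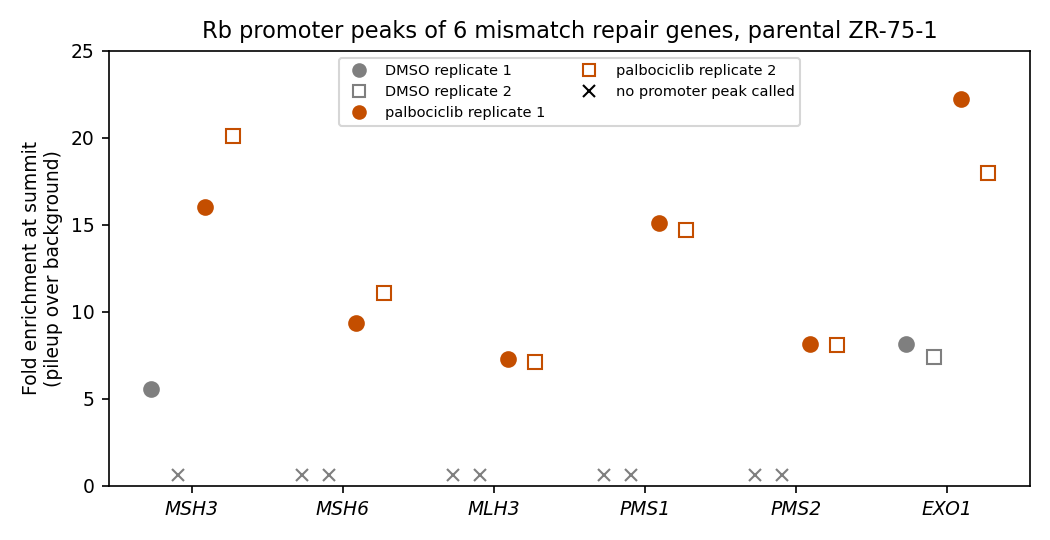
Fold enrichment at the summit (vertical axis, linear, pileup over background) of the promoter peak of each gene (horizontal axis) in the 4 parental Rb lists. Filled circles are replicate 1 and open squares replicate 2, grey for DMSO and orange for palbociclib, and crosses near 0 mark lists with no promoter peak. All 12 palbociclib points are called, whereas EXO1 has 2 DMSO points, MSH3 has 1 and the other 4 genes have none.

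EXO1 was the gene with the highest mean enrichment of the 6. Its promoter peak lay on chromosome 1 (hg38, chr1:241847783-241848545 in palbociclib replicate 1). The fold enrichment of this peak was 8.17 and 7.38 in the DMSO replicates, and 22.2 and 18.0 in the palbociclib replicates. Both palbociclib values lay above both DMSO values. The log2 difference was 1.36 ± 0.17 (SE, n = 2 libraries per treatment), a 2.57-fold rise in the mean on the log scale, with p = 0.333 in the exact permutation test. Replicates differed by 0.15 on the log2 scale with DMSO and by 0.30 with palbociclib. Whole-number pileups recovered from the deposited columns reached 39 and 37 fragments under DMSO, against 107 and 92 under palbociclib, with exact Poisson 95% intervals of 27.7 to 53.3, 26.1 to 51.0, 87.7 to 129 and 74.2 to 113, which cover counting error only. The mean expected background, which the calling against IgG sets, was 4.02 fragments in both treatments. DMSO peaks spanned 311 and 506 bp and palbociclib peaks 763 and 676 bp, a log2 difference of 0.86 ± 0.36 (SE, n = 2 libraries per treatment) with p = 0.333 in the exact permutation test. EXO1 was among 580 genes called in all 4 parental lists. All 580 were higher with palbociclib, with a median log2 difference of 1.88 and quartiles of 1.64 and 2.13, and EXO1 ranked 527 by that difference.

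The EXO1 summit stayed in place between treatments. In DMSO replicates 1 and 2 it lay at -158 and -135 bp from the canonical start (chr1:241848204, plus strand), and in the palbociclib replicates at -130 and -134 bp. In all 4 lists it fell within a UTR exon of other EXO1 transcripts and an exon of the antisense lncRNA ENSG00000288723. The start of this lncRNA is 76 bp from the canonical start of EXO1. The stretches of 30 bp around the cyclic AMP response element (TGACGTCA) and the E2F-type match of EXO1 are shown because both lie within the palbociclib peaks, downstream of the summit. Capitals mark the matched letters.
EXO1 element, chr1:241848139-241848168, plus strand: gggatacgcgtTGACGTCAcatcctctggg
EXO1 E2F-type match, chr1:241848197-241848226, plus strand: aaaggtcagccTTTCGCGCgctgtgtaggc
The second stretch crosses the canonical start.

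MSH3 was the other gene with a DMSO peak. Its fold enrichment was 5.55 in DMSO replicate 1, not called in DMSO replicate 2, and 16.0 and 20.1 with palbociclib. The palbociclib values were 2.88 and 3.62 times that of DMSO replicate 1, which had no second DMSO value to set an error. At the background of the palbociclib lists, a peak in a DMSO list would have needed a fold enrichment of about 4.09 to 4.16 to be called, assuming the same local background. The recovered pileups were 15 fragments in DMSO replicate 1 and 46 and 57 with palbociclib. The peak was 370 bp wide in DMSO replicate 1 and 874 and 883 bp wide with palbociclib. Its summits lay at +7 bp from the canonical start (chr5:80654652, plus strand) with DMSO and at +93 and -59 bp with palbociclib, so the replicates placed it 152 bp apart.

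MSH6 was called with palbociclib only, at a fold enrichment of 9.34 and 11.1. Its peaks were the widest of the 6 genes, at 1453 and 1383 bp, and reached more than 1000 bp into the gene. The pileups were 40 and 39 fragments. Summits were at -84 and -136 bp from the canonical start (chr2:47783145, plus strand), in an intron of longer annotated transcripts. A DMSO peak would have needed a fold enrichment of about 3.42 to 3.61 at the same background. The 201 bp around each summit was 79.6% G and C, more than in 90.1% of the 5804 palbociclib promoter peaks compared. The stretch under the summits is printed to show the SP/KLF-type letters (GGGCGG or CCGCCC, in capitals) that crowd it, followed by the E2F-type match at the canonical start.
MSH6 summit region, chr2:47782932-47783081, plus strand: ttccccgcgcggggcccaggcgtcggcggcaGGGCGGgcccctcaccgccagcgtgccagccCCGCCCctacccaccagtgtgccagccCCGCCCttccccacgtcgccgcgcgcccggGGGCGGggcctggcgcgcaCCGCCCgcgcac
MSH6 start, chr2:47783137-47783166, plus strand: ctccccccagaTTTCCCGCcagcaggagcc

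Of the 3 MutL-type genes, PMS1 had the highest peak, with a fold enrichment of 15.1 and 14.7 with palbociclib and no call with DMSO. Its pileups were 32 and 31 fragments over an expected 1.18 in both replicates, and its widths were 1024 and 1078 bp. The summits lay at +108 and +146 bp from the canonical start (chr2:189784450, plus strand) in a UTR exon. The peak also held the start of ORMDL1, a regulator of sphingolipid synthesis, whose canonical start lies 111 bp from that of PMS1 on the opposite strand. No E2F-type match was found in the PMS1 peak of palbociclib replicate 1. That peak held a pair of CCAAT boxes, the letters bound by NF-Y, in opposite orientation between the starts of both genes.
PMS1 and ORMDL1, chr2:189784394-189784423, plus strand: gcggATTGGctgcgagcagcgCCAATctca

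PMS2 had a fold enrichment of 8.17 and 8.11 with palbociclib, the closest pair of replicates among the 6 genes, and no call with DMSO. The called interval was the same 790 bp in both replicates (chr7:6008711-6009500), with pileups of 23 and 24 fragments and summits at -74 and -8 bp from the canonical start (chr7:6009049, minus strand). The peak also covered the start of AIMP2, which encodes a scaffold of the multi-tRNA synthetase complex and runs the other way. The canonical start of AIMP2 lies 223 bp from that of PMS2. The 124 bp between the genes held CCAAT boxes, the cyclic AMP response element, and an E2F-type match that overlapped SP/KLF-type letters.
PMS2 and AIMP2, chr7:6009131-6009254, minus strand: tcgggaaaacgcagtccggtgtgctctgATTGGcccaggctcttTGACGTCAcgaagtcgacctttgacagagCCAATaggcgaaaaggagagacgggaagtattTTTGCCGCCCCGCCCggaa

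PMS2 has near-copies on chromosome 7, which bear on where its fragments could be placed. The 790 bp peak aligned over at least 600 bp to 5 other places at 87.0 to 88.6% identity, among them the pseudogenes PMS2P4, PMS2P7, PMS2P2 and PMS2P1. Peaks were called on 2 of these 5 alignments, at PMS2P4 and PMS2P1, and only in the palbociclib lists. At PMS2P4 the fold enrichment was 8.48 and 8.55, next to the 8.17 and 8.11 of PMS2 itself. At PMS2P1 it was 5.28 and 4.9. A further peak, of 6.62 in palbociclib replicate 1 alone, lay at PMS2P7 on a separate match of 198 bp at 86.4% identity. Whether fragments were exchanged between PMS2 and these copies was not tested. The MSH3 peak had 4 matches of 152 to 161 bp at 83.1 to 99.4% identity, with 0 peaks called there, and fragment placement was not tested for it either. The peaks of MSH6, MLH3, PMS1 and EXO1 had no match of 100 bp or more at 80% identity.

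MLH3 had the lowest peak of the 6, at 7.26 and 7.1 with palbociclib and no call with DMSO. It rested on 10 fragments in each replicate, with an exact Poisson 95% interval of 4.8 to 18.4, over backgrounds of 0.516 and 0.549, which are the smallest that occur in those lists. A DMSO peak would have needed a fold enrichment of about 4.52 to 4.62. The peak was narrow, at 298 and 267 bp, and lay wholly downstream of the canonical start (chr14:75051467, minus strand), with summits at +207 and +119 bp in an intron. It shared no start with another gene and held no E2F-type match in palbociclib replicate 1. The EXO1 peak of that replicate also held only 1 SP/KLF-type match, and the PMS1 peak likewise no E2F-type match. The MLH3 summit region is printed with the only SP/KLF-type letters it holds in capitals.
MLH3 intron, chr14:75051220-75051368, minus strand: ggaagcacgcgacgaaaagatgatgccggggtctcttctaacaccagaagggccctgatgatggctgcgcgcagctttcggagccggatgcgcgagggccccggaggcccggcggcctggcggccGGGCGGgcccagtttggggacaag

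**Figure D2:**
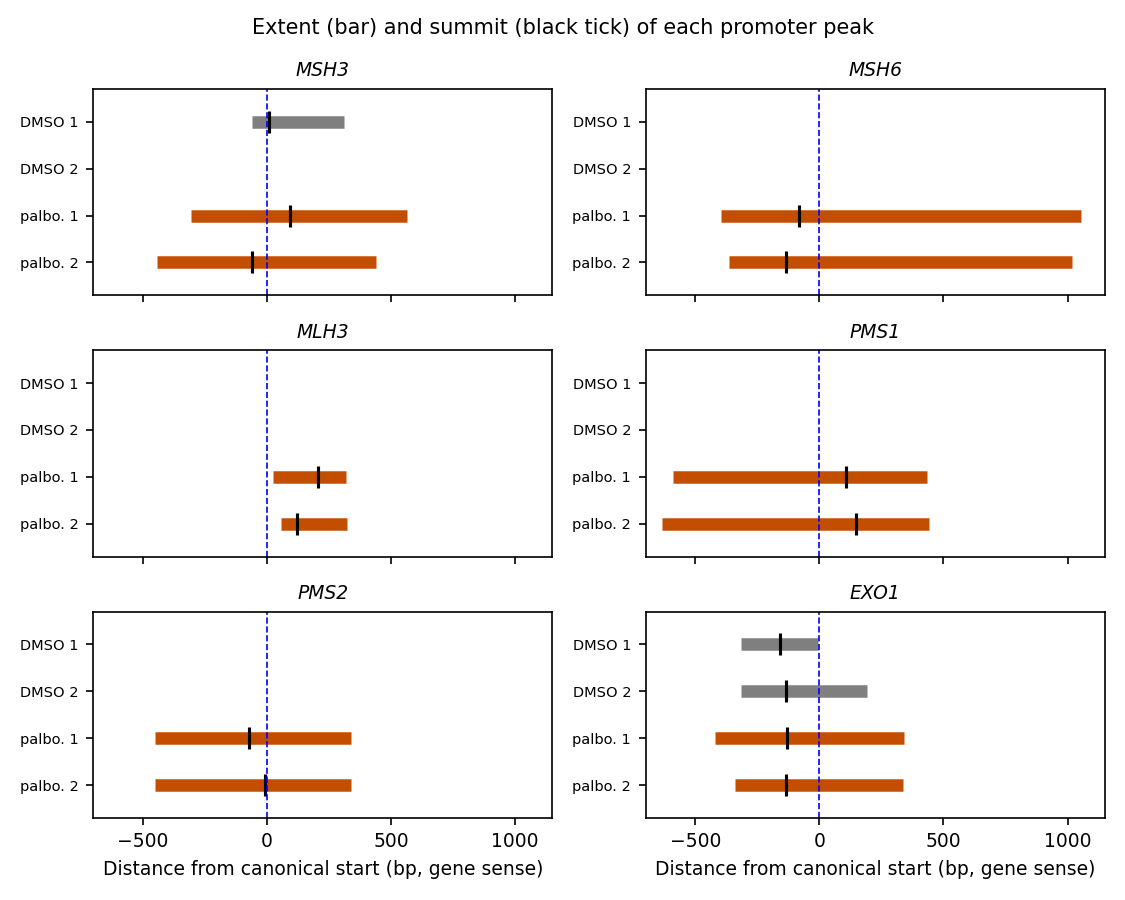
Extent of each promoter peak (bar) and its summit (black tick) by distance from the canonical start of the gene (horizontal axis, bp, positive into the gene; dashed line at 0), with 1 row per parental Rb list, grey for DMSO and orange for palbociclib. The EXO1 summits line up across the 4 lists, the MSH6 bars are the longest at 1453 and 1383 bp, and the MLH3 bars begin downstream of the start.

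The letters searched for E2F were TTTCCCGC, TTTCGCGC, TTTGCCGC and TTTGGCGC on both strands. They occurred within 100 bp of a palbociclib summit for 3 of the 6 genes (MSH3, MSH6 and PMS2), and for PMS2 at both summits. In palbociclib replicate 1 alone they did so for 2 genes (MSH6 and PMS2), and this is the count to set beside the 5.79% of 5804 promoter peak summits of that replicate. In RefSeq promoter windows (GRCh38.p14) the letters were present for 4 of the 6 genes (MSH3, MSH6, PMS2 and EXO1) and in 3.31% of 34789 windows. A gene was counted when any of its windows held the letters, whereas the share is over single windows. The EXO1 match lay more than 100 bp from its palbociclib summits. In the same replicate, CCAAT was found at the summits of MSH6 and PMS2, against 25.6% of its promoter summits, GGGCGG at the summit of every gene but PMS1, against 69.9%, and TGACGTCA at PMS2 and EXO1, against 1.1%. The cell cycle homology region TTTGAA (3.31% of summits) and the ETS-type CCGGAAGT (3.19%) occurred within 100 bp of no palbociclib summit of the 6 genes, although the EXO1 peak held 1 TTTGAA at -245 bp from the summit of palbociclib replicate 1. These matches describe letters in the windows, not occupied sites.

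Among the 6974 genes called in both palbociclib lists, the median of the mean fold enrichment was 8.36, with quartiles of 5.99 and 12.9. The 6 genes had a median of 12.6 and spread across that range. EXO1 (20.1 ± 2.97, SD, n = 2) stood above 90.5% of the called genes, MSH3 (18.1 ± 2.9) above 87.8% and PMS1 (14.9 ± 0.283) above 81.1%. MSH6 (10.2 ± 1.24) stood above 62.8%, PMS2 (8.14 ± 0.0424) above 48.0% and MLH3 (7.18 ± 0.113) above 38.5%. By fold enrichment, EXO1 and MSH3 could not be ordered, since their replicates overlapped (18.0 to 22.2 and 16.0 to 20.1). The replicate values of PMS1, MSH6, PMS2 and MLH3 followed below without overlap. That order leaves out counting error. The exact Poisson intervals of the pileups overlapped for MLH3 (4.8 to 18.4) and PMS2 (14.6 to 34.5 and 15.4 to 35.7). The order also depended on the measure. By pileup, MSH6 (40 and 39 fragments) stood above PMS1 (32 and 31), and EXO1 (107 and 92) above MSH3 (46 and 57). PMS2 and MLH3 came last by both measures. The replicates of the 6 genes differed by a median of 0.15 on the log2 scale, against 0.27 over all called genes.

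**Figure D3:**
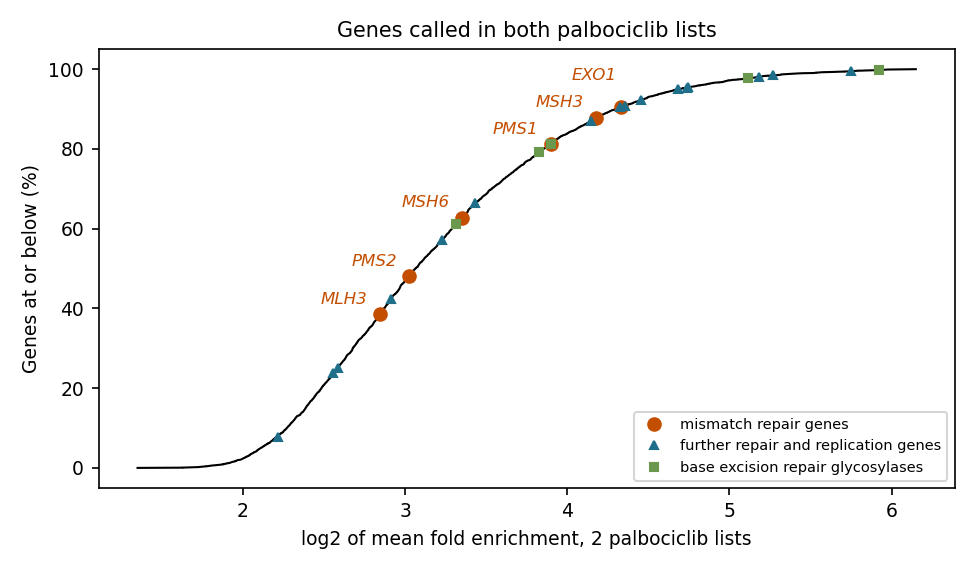
Share of the 6974 genes called in both palbociclib lists (vertical axis, percent) at or below a given mean fold enrichment (horizontal axis, log2 scale), drawn as a black line. Orange circles are the named mismatch repair genes, blue triangles the list of 18 further repair and replication genes, and green squares the base excision repair glycosylases. The mismatch repair genes run from MLH3, at 7.18, to EXO1, at 20.1.

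Further genes that act with or near mismatch repair formed a list of 18: PCNA, the clamp loader RFC1 to RFC5, the single-strand binding RPA1 to RPA3, the polymerase delta subunits POLD1 to POLD4, the ligase LIG1, HMGB1, SSBP1, MSH4 and MSH5. Of these, 16 were called in both palbociclib lists and 7 in both DMSO lists (PCNA, RPA1, RPA2, RPA3, POLD2, LIG1 and MSH5), with RFC4, POLD1 and HMGB1 in 1 DMSO list each. Among all protein-coding genes these shares were 34.9% for both palbociclib lists and 2.9% for both DMSO lists. LIG1 was highest, at 50.8 and 56.8 with palbociclib against 8.68 and 10.6 with DMSO. The lowest called in both was RFC2, at 6.48 and 2.81, and it also had an IgG2a peak of 4.18. SSBP1, of mitochondrial DNA maintenance, was called in palbociclib replicate 2 alone at 3.92, and the meiotic MSH4 was not called. The median of the mean palbociclib fold enrichment was 20.2 in this list and 12.6 in the 6 genes.

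A second list of 10 held the DNA glycosylases that open base excision repair. In it, 5 were called in both palbociclib lists (UNG, MBD4, OGG1, NTHL1 and NEIL3) and 3 of these in both DMSO lists (UNG, OGG1 and NEIL3). The shares over all protein-coding genes were the 34.9% and 2.9% given above, beside which the 5 of 10 called with palbociclib are near the background. OGG1, which removes oxidised guanine, was highest at 59.7 and 61.7 with palbociclib and 17.8 and 12.7 with DMSO, and MBD4 was lowest of those called, at 11.3 and 8.61. SMUG1, TDG, MPG, NEIL1 and NEIL2 had no palbociclib peak, and TDG had an IgG2a peak of 4.14.

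**Figure D4:**
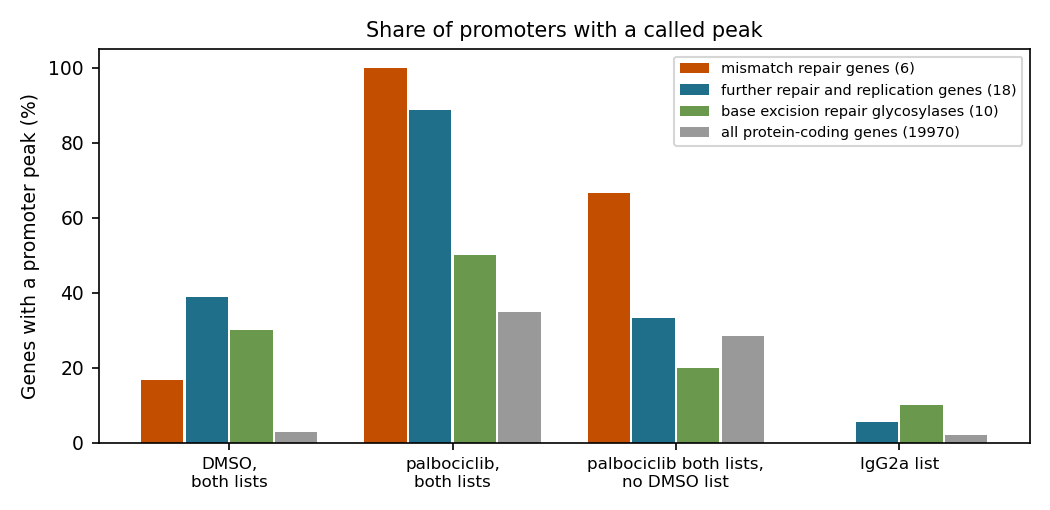
Share of genes with a promoter peak (vertical axis, percent, from 0) in both DMSO lists, in both palbociclib lists, in both palbociclib lists but no DMSO list, and in the IgG2a list. Bars are the 6 mismatch repair genes, the 18 further repair and replication genes, the 10 glycosylases and all 19970 protein-coding genes. All 6 mismatch repair genes are called with palbociclib, against 34.9% of all genes.

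The genes most alike in fold enrichment were named by the distance between log2 values, among genes with the same pattern of calls. All 4 parental lists were used for EXO1 and only the 2 palbociclib lists for the others, including MSH3. For EXO1, over 4 lists and 564 genes, the most alike were RPA1 and SMYD4, which share a promoter peak (7.85 and 6.5 for DMSO, 20.8 and 20.1 for palbociclib). Over the 2 palbociclib lists the most alike were MCUR1 and INPP5F for MSH3, ITPR3 and AAMP for MSH6, and GLCE and TMEM238 for PMS2. For PMS1 they were TMEM91 and B9D2, which had equal values of 15.2 and 14.6. For MLH3 they were TMEM14A and TAB1, whose values were identical to those of MLH3 at 7.26 and 7.1. MLH3 rested on 10 fragments over the smallest background of each list, and any promoter with those counts gets the same values.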

How the data were processed

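Rb CUT&RUN peaks of 7 libraries were analysed, grouped by sample title. Per the labels and the study's methods, the authors aligned paired-end reads to hg38 with Bowtie2 (2.3.4.1), removed mitochondrial and blacklisted reads, kept duplicates, and called peaks per library with MACS2 (2.2.7.1) against IgG at a q-value cutoff of 0.05. A mapping-quality filter is not given in the sources used here. The deposited columns used were fold enrichment (pileup over background, each with 1 added) and the -log10 p-value and q-value. The deposited integer score was not used for any result. Peaks were joined to GENCODE release 44 starts with Python 3.11.15 and pandas 2.3.3. The strongest promoter peak represented a gene. Pileup and background were solved from fold enrichment and p-value, and the procedure was tested on simulated peaks. Near-copies were sought with blastn 2.17.0. Two-sided exact permutation tests compared the parental treatments. Named genes were the 6 genes, those sharing their peaks, the extremes and DMSO-called or uncalled genes of both lists, and the most alike genes; 1 gene that this rule names is not reported here. The members and lists were chosen with earlier results of these data known. Alternatives covered window, start set, cutoffs, list length, replicate block and left-out libraries.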

Additional observations from a re-analysis of the deposited data

How the results depend on the processing

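Cutting each parental list to its best 816 peaks moved the difference between treatments to 0 genes, the number of genes called in both palbociclib lists to 1 and the number gained to 0, with backgrounds of 3.82% for both palbociclib lists and 0.731% for a gain. The other windows, start sets and cutoffs left every count of the 6 genes as reported. A common p-value cutoff (-log10 p of at least 5.33), chosen after seeing the data, did so too, with a gained background of 26.4%. Leaving out each parental library in turn gave a difference of 4.0 to 5.0 genes, 1 to 2 genes in the DMSO lists (2 without DMSO replicate 2, where MSH3 joined EXO1) and 4 to 5 gained. For EXO1 the log2 difference then ranged from 1.21 to 1.51 in fold enrichment and from 0.51 to 1.21 in width, and it was 1.39 for the recovered pileup and 2.3 for -log10 q. With the replicate number as a block the EXO1 differences stayed at 1.36 and 0.86, with an exact permutation p of 0.5, the smallest that 2 pairs allow; the deviations of same-numbered libraries from their group means correlated at r = 0.06 across 580 genes, which are not independent replicates, so the numbers were treated as names only. With 2 libraries per treatment no exact permutation test could pass 0.05, and the recovered pileups of 10 fragments for MLH3 set the weakest precision.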
